A study of Mus musculus with 8 samples.

Results

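The transcripts of the inflammasome and of necroptosis were followed in liver of Pemt-/- and Pemt+/+ mice over 4 weeks on high fat-high sucrose (HFHS) chow. The set was 10 genes chosen by name (Nlrp3, Pycard, Casp1, Casp4, Gsdmd, Il1b, Il18, Ripk1, Ripk3 and Mlkl), and every probe set that the array annotation paired with 1 of these genes alone was taken. This gave 11 of 45037 probe sets, for 9 of the 10 genes. Ripk1, the upstream kinase of necroptosis, was paired with none of them and is not analysed here. Of the 11 probe sets, 9 passed the filter on dim probe sets, 1 for each of the 9 genes, and the 2 that did not were further probe sets of Pycard.

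The knockout mice were Pemt-/-, which lack phosphatidylethanolamine N-methyltransferase, the liver enzyme that makes phosphatidylcholine from phosphatidylethanolamine, and the controls were Pemt+/+. Both genotypes were fed the HFHS diet, and liver RNA was taken after 1, 2, 3 and 4 weeks of it, with 1 Affymetrix expression array per genotype and week, 8 arrays in all. The study describes male mice and a systemic deletion of Pemt. Its methods name 4 mice of each genotype for the feeding over these weeks, but whether an array holds the RNA of 1 mouse, and the age of the mice, could not be learned from the labels or methods. With week held as a factor, the p-values of the genotype difference rest in part on how much the difference within a week varied over the 4 weeks. The moderated test of limma also draws on the variance of other probe sets of like intensity. The spread over the weeks may therefore be partly technical, and it also holds any true change of the difference over the weeks. The Pemt probe set measured 201 to 255 in Pemt-/- and 4989 to 6045 in Pemt+/+ (adjusted p = 5.00e-07, limma), low on all 4 arrays labelled Pemt-/-. Hepatocyte markers fixed for the check of the tissue were bright on every array, at summed intensities of 346243 to 434733 in Pemt-/- and 483743 to 516580 in Pemt+/+.

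An inflammasome is a cytosolic complex in which a sensor such as NLRP3 gathers the adaptor ASC, the product of Pycard, and ASC in turn gathers pro-caspase-1. Active caspase-1 cuts the precursors of interleukin-1β and interleukin-18 into their secreted forms and cuts gasdermin D, whose fragment opens pores in the plasma membrane and ends the cell by pyroptosis. Mouse Casp4, also called caspase-11, cuts gasdermin D directly when it senses lipopolysaccharide inside the cell. Necroptosis is a separate lytic death in which the kinase RIPK3 phosphorylates the pseudokinase MLKL, which then breaks the plasma membrane. Most of these steps act on proteins, so transcript levels show how much of each component could be made and not whether a complex was active. In liver, resident and recruited macrophages are known for high levels of inflammasome components.

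The genotype difference was asked first over the 4 weeks together. Of the 9 genes tested, Pycard and Mlkl were higher in Pemt-/- liver, at 2.21-fold and 1.91-fold, Il18 was lower, at 1.79-fold, and the other 6 did not pass the test. The folds come from log2(intensity + 16), a scale on which changes of dim probe sets appear smaller than they are. Over all 27022 probe sets tested, 16.2% passed, with 10.3% higher and 5.86% lower, so that 2 higher and 1 lower call among 9 probe sets is a small number to set beside that background. The median log2 difference was 0.43 over the 9 probe sets and 0.02 over all probe sets tested. The genes were chosen with earlier results of these data known, so comparisons with all probe sets are not free of that choice. The genotypes did not overlap for 4 of the 9, against 21.8% of all probe sets tested. Pemt-/- was higher in all 4 weeks for 3 of the 9 and lower in all 4 for 1, against 21.2% and 16.7% of all. Of the 6 that did not pass, 5 had a difference above 0, and 0 of the 6 had an unadjusted p under 0.05 by limma.

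**Figure D1:**
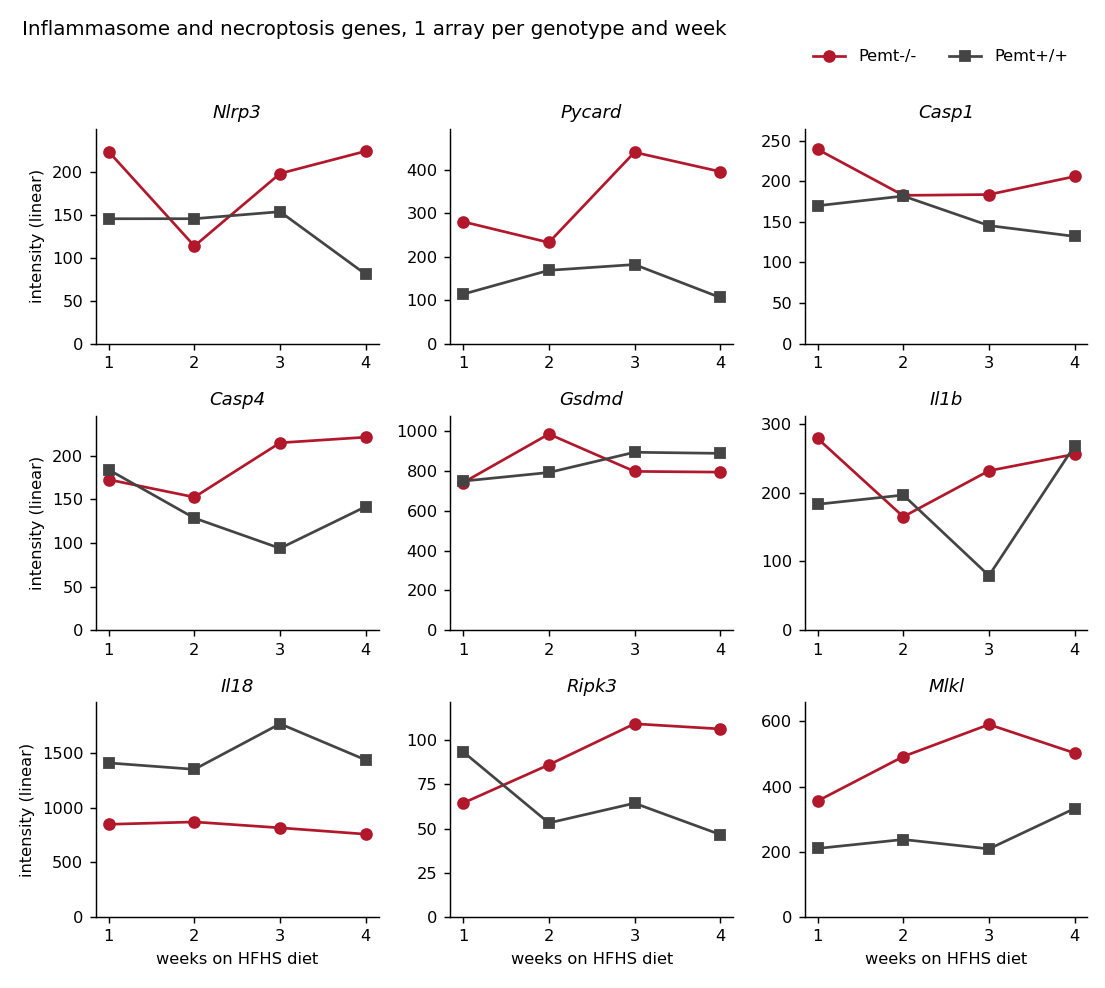
Deposited probe set intensity on a linear axis that starts at 0, against weeks on the HFHS diet, in 1 panel for each of the 9 genes, with red circles for Pemt-/- and grey squares for Pemt+/+. Each point is 1 array, so the points have no error bars. The lines of the genotypes stay apart for Pycard, Mlkl and Il18 and cross for Nlrp3, Casp4, Gsdmd, Il1b and Ripk3.

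Of the sensor and the adaptor of the inflammasome, only the adaptor passed the test, and the difference between their effects was not tested. Nlrp3, the sensor, measured 223, 113, 198 and 224 at weeks 1, 2, 3 and 4 in Pemt-/- and 145, 145, 153 and 80.6 in Pemt+/+. Pemt-/- was above Pemt+/+ in 3 of the 4 weeks and below it at week 2, and the ranges of the genotypes overlapped. The log2 difference was 0.48 ± 0.25 SE, with a 95% interval from -0.10 to 1.05 (adjusted p = 0.246, limma). That interval holds both no difference and a rise of the size called for Mlkl. The week 4 value of Pemt+/+ lay apart from the other 3, and leaving out week 4 gave a difference of 0.20 (adjusted p = 0.682), whereas leaving out week 2 gave 0.74 (adjusted p = 0.0685).

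Pycard, the adaptor, had 3 probe sets. The brightest of them measured 281, 233, 441 and 396 in Pemt-/- at weeks 1 to 4 and 114, 169, 182 and 106 in Pemt+/+. Every Pemt-/- array was above every Pemt+/+ array, a separation that 12.8% of all probe sets tested showed in this direction. Its mean was 338 ± 97.1 in Pemt-/- and 143 ± 38.3 in Pemt+/+ (SD, n = 4 each), and the log2 difference of 1.15 ± 0.21 SE passed the test (adjusted p = 0.00909, limma), in 4 of 4 weeks. The gap was narrowest at week 2, at a ratio of 1.38, and widest at week 4, at 3.73. With each week left out in turn the adjusted p ran from 0.00265 to 0.0456, which was under the threshold each time. The call was lost with the unpaired test that the study's methods name, once adjusted over all probe sets tested (adjusted p = 0.0534). The methods name no such adjustment. The other 2 Pycard probe sets had overlapping genotypes and lower means in Pemt-/-. The dimmest measured 18.2, 34.7, 2.26 and 19.3 in Pemt-/- and 31.8, 22.6, 52.5 and 42.2 in Pemt+/+. The remaining probe set measured 17.1, 40.4, 18.6 and 23.2 in Pemt-/- and 63.1, 48.0, 2.45 and 65.0 in Pemt+/+. Both were near the added constant of 16 and lay at the 27.2 and 30.8 percentiles of mean log2 intensity, under the 40th percentile required. With no filter their log2 differences were -0.68 and -0.40 (adjusted p = 0.353 and 0.623, limma). The mean of the 3 probe sets had a log2 difference of 0.02 and fell below the filter (adjusted p = 0.958 by limma with no filter), so the rise of Pycard rests on its brightest probe set.

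Neither inflammatory caspase passed the test. Casp1, which encodes the protease that inflammasomes activate, measured 239, 183, 184 and 206 in Pemt-/- at weeks 1 to 4 and 170, 182, 145 and 132 in Pemt+/+. The genotypes did not overlap, though by little, since the lowest Pemt-/- array and the highest Pemt+/+ array, both of week 2, were a ratio of 1.00 apart. The log2 difference of 0.34 ± 0.17 SE did not pass (95% interval -0.05 to 0.72, adjusted p = 0.213, limma). Casp4 measured 173, 153, 215 and 221 in Pemt-/- and 184, 129, 93.9 and 142 in Pemt+/+. It was lower in Pemt-/- at week 1 and higher at the other weeks, with a ratio of 2.29 at week 3, where the Pemt+/+ array was the lowest of the 8. Its log2 difference was 0.45 ± 0.22 SE (95% interval -0.04 to 0.94, adjusted p = 0.196, limma), and it was 0.24 without week 3 (adjusted p = 0.570).

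Gsdmd, the pore-forming substrate of both caspases, had a difference close to 0. It measured 743, 987, 799 and 795 in Pemt-/- and 750, 794, 895 and 890 in Pemt+/+. The log2 difference was -0.01 ± 0.12 SE, with a 95% interval from -0.28 to 0.27 (adjusted p = 0.979, limma). Among the 9 probe sets it had the narrowest interval apart from Il18. Pemt-/- was higher at week 2 and lower at weeks 1, 3 and 4.

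Of the cytokine precursors, Il18 passed the test and Il1b did not, and the difference between these effects was not tested. Il18 measured 847, 869, 815 and 757 in Pemt-/- at weeks 1 to 4 and 1409, 1351, 1768 and 1437 in Pemt+/+. All 4 Pemt-/- arrays were below all 4 Pemt+/+ arrays, as were 8.96% of all probe sets tested, and the Pemt-/- arrays lay within a narrow range. The mean was 822 ± 48.7 in Pemt-/- and 1491 ± 188 in Pemt+/+ (SD, n = 4 each). The log2 difference of -0.84 ± 0.12 SE passed the test (95% interval -1.11 to -0.58, adjusted p = 0.0027, limma), in 4 of 4 weeks, and the adjusted p stayed between 0.00282 and 0.0192 with each week left out. Il1b, which encodes the interleukin-1β precursor, measured 279, 165, 232 and 256 in Pemt-/- and 183, 197, 79.4 and 269 in Pemt+/+. Pemt-/- was higher at weeks 1 and 3 and lower at weeks 2 and 4, and the Pemt+/+ array of week 3 was the lowest of the 8. The log2 difference was 0.41 ± 0.26 SE (95% interval -0.18 to 1.00, adjusted p = 0.324, limma), and 0.09 without week 3 (adjusted p = 0.848).

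The necroptosis kinase and its effector followed. Ripk3 measured 64.5, 86.2, 109 and 106 in Pemt-/- at weeks 1 to 4 and 93.5, 53.2, 64.4 and 46.6 in Pemt+/+. Pemt-/- was below Pemt+/+ at week 1 and above it at the other 3 weeks. The log2 difference of 0.43 ± 0.28 SE did not pass (95% interval -0.20 to 1.07, adjusted p = 0.337, limma), and leaving out week 1 gave 0.72 (adjusted p = 0.131), leaving out week 4 gave 0.25 (adjusted p = 0.691). Mlkl, the executioner, measured 356, 492, 591 and 503 in Pemt-/- and 210, 237, 209 and 333 in Pemt+/+. The lowest Pemt-/- array was above the highest Pemt+/+ array. The mean was 486 ± 97.0 in Pemt-/- and 247 ± 58.5 in Pemt+/+ (SD, n = 4 each), and the log2 difference of 0.93 ± 0.17 SE passed the test (95% interval 0.55 to 1.31, adjusted p = 0.00774, limma), in 4 of 4 weeks. With each week left out the adjusted p lay between 0.0158 and 0.0393.

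**Figure D2:**
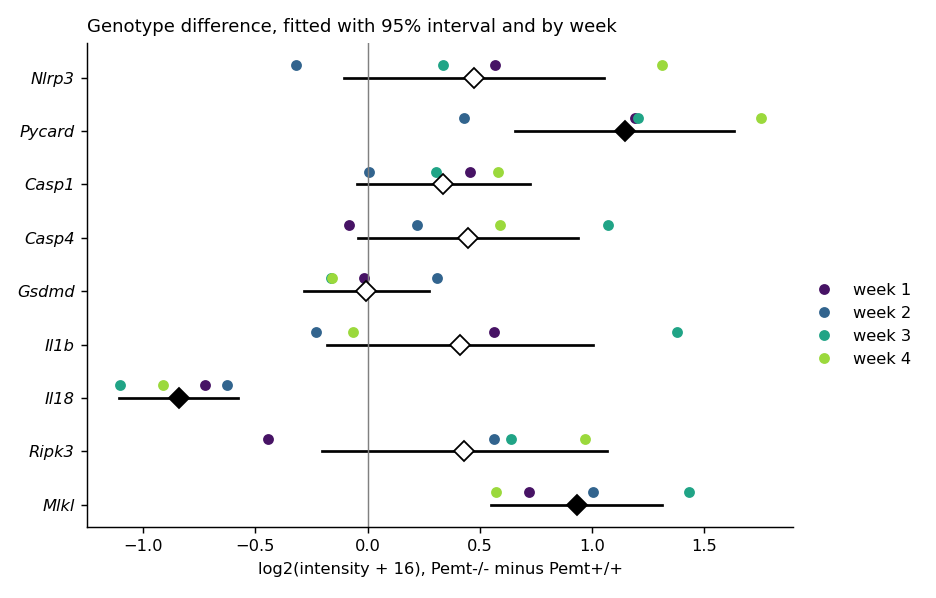
Difference in log2(intensity + 16), Pemt-/- minus Pemt+/+, for the 9 tested probe sets, with the fitted difference as a diamond, its 95% interval as a line and the 4 weekly differences as coloured points above it. Filled diamonds passed the test (Pycard 1.15, Mlkl 0.93, Il18 -0.84), and their weekly points lie on 1 side of 0.

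The brightest probe set of Pycard and that of Mlkl were higher in Pemt-/-, and Il18 was lower. The 250 bases before the annotated start of these 3 genes are therefore shown, from RefSeq on GRCm38.p6, 5′ to 3′ on the strand of the gene. Of the 10 genes, 9 had an entry in the promoter table. Capitals mark every match, on either strand, to the motifs searched. For interferon-regulated genes these were GAAAG, a piece of the interferon response element, and the full core of that element, which is GAAA followed after 2 bases by GAAA and can hold GAAAG within it. The gamma-activated sequence bound by STAT factors was searched as TTCNNNGAA. For the myeloid factor PU.1 the core GAGGAA was used. The NF-kB motif was the loose form GGGNNTTCC. For p53 only the string CATGNCATG was searched, which is not the full p53 element and was in 0.307% of all 32851 promoter windows. A window without it is therefore not shown to lack a p53 site. TATAAA stood for the TATA box. No match overlaps another in the windows printed.
Pycard, chr7:127993868-127994117, minus strand: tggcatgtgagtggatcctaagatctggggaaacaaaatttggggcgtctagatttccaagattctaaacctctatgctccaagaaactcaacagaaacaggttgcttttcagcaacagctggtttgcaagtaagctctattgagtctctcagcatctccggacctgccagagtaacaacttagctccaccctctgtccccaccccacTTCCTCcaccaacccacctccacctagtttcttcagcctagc
Mlkl, chr8:111338206-111338455, minus strand: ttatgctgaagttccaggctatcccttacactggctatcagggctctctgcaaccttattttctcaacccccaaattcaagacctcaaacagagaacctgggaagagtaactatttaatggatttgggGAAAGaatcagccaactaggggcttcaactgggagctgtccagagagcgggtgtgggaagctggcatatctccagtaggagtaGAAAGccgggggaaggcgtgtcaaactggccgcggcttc
Il18, chr9:50554450-50554699, plus strand: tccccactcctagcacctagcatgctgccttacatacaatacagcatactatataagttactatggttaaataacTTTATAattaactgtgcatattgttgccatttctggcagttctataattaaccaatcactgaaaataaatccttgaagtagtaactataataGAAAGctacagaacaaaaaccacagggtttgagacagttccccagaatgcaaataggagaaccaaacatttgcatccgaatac
The Pycard window held 1 match to the PU.1 core, on the opposite strand, 42 to 37 bases before the start, a motif found in 23.3% of all 32851 promoter windows of this length. The Mlkl window held GAAAG at 122 to 118 and at 39 to 35 bases before the start, and the Il18 window held it at 83 to 79. This short motif was present in 51.5% of all windows. Il18 also had 1 TATAAA match on the opposite strand, a motif of 12.4% of windows. The same motifs were in windows of other genes of the set: the PU.1 core in Casp1, Nlrp3 and Ripk1, GAAAG in Casp1, Casp4, Nlrp3 and Ripk1, and TATAAA in Il1b. Among the genes that did not pass, Casp4 had 2 matches to the NF-kB motif in its window, at 92 to 84 and 39 to 31 bases before the first of its 2 annotated starts, and Nlrp3 had 1 in each of its 2 windows. That motif was in 4.98% of windows. The matches are a description of letters and not of binding sites.

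Ratios within a week were then counted at the thresholds the study used, 2 or more and 0.5 or less, as a description, since a week has a single array of each genotype. At week 1 only Pycard reached 2 (ratio 2.47), where 7.56% of tested probe sets did. At week 2 only Mlkl did, at 2.07, where 6.5% did. At week 3 the number was 4 of 9, with Il1b at 2.92, Mlkl at 2.83, Pycard at 2.42 and Casp4 at 2.29, where 9.79% of tested probe sets did. At week 4 it was 3 of 9, with Pycard at 3.73, Nlrp3 at 2.78 and Ripk3 at 2.28, where 10.2% did. Among the 9 tested probe sets, only Il18 at week 3 lay below 0.5, at 0.461, where 5.61% of all tested probe sets lay. At weeks 1, 2 and 4 the number was 0 of 9, where 4.09%, 5.66% and 5.85% of tested probe sets lay there. The other Il18 ratios were 0.601, 0.643 and 0.527 at weeks 1, 2 and 4. The 2 Pycard probe sets under the filter were left out of these counts, though they crossed both thresholds. The dimmest had ratios of 0.573, 1.53, 0.0429 and 0.457 at weeks 1 to 4, and the other 0.271, 0.841, 7.59 and 0.356. Among the 9 tested probe sets, the highest ratios of Il1b, Mlkl and Casp4 were at week 3. Those of Pycard, Nlrp3 and Ripk3 were at week 4. Each fell in the week in which the Pemt+/+ array of that gene was the lowest of its 4. The lowest ratio of Il18 fell where its Pemt+/+ array was the highest. The median log2 difference of the 9 probe sets was 0.46, 0.22, 0.64 and 0.58 at weeks 1, 2, 3 and 4, against 0.05, -0.01, 0.02 and 0.04 for all probe sets tested.

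Whether the difference between genotypes grew over the weeks was asked with a slope for each genotype. None of the 9 slope differences passed (adjusted p from 0.765 to 1.00, limma), and 0 of the 9 had an unadjusted p under 0.05, where 6.73% of all probe sets tested did, 3.65% with the difference above 0, and 0 passed after adjustment. Over the 4 weeks the steepest was Ripk3, whose log2 value changed by 0.21 ± 0.14 SE per week in Pemt-/- and by -0.22 ± 0.14 SE per week in Pemt+/+. The slope difference of 0.43 ± 0.20 SE per week had a 95% interval from -0.02 to 0.88 (unadjusted p = 0.0576, adjusted p = 0.765, limma). With a week left out in turn it ran from 0.20 to 0.54. Without week 1 it was below those of Nlrp3, Pycard and Casp1 (0.81, 0.66 and 0.29). It was then also smaller in size than those of Gsdmd (-0.23) and Mlkl (-0.21). Without week 4 it was below that of Casp4 (0.58). Mlkl changed by 0.17 per week in both genotypes, a slope difference of -0.0003 with an interval from -0.32 to 0.32. For Pycard the slope was 0.23 in Pemt-/- and -0.02 in Pemt+/+, a difference of 0.25 ± 0.20 SE that ran from 0.0065 without week 4 to 0.66 without week 1. For Il18 it was -0.06 in Pemt-/- and 0.05 in Pemt+/+, a difference of -0.10 ± 0.10 SE. The within-genotype slopes of the 9 genes did not pass either (adjusted p from 0.644 to 0.998 in Pemt-/- and from 0.986 to 0.999 in Pemt+/+). Over all probe sets 0.104% passed for the change per week in Pemt-/- and 0 in Pemt+/+, and 10.3% in Pemt-/- and 5.45% in Pemt+/+ had an unadjusted p under 0.05.

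The other genes of these pathways were read from 4 lists of 87 genes, of which 75 had a probe set and 69 were tested with the brightest probe set of each gene. Of the 69, 13 were higher, 5 were lower and 51 did not pass, where 1638 (12.6%) were higher and 972 (7.51%) lower of all 12949 genes tested. The list median was 0.18, and 0.02 over all genes, a comparison that is not free of how the lists were chosen. With each week left out in turn, 8 of the 18 calls held throughout and 10 were lost in at least 1 week. Of the calls described below, some were lost with the methods' unpaired test after adjustment. These were Nlrp6, Nlrp12, Nek7, Cd14, Irak3, Gbp3, Ninj1, Il33, Tnfaip3 and Rbck1. Nek7 passed in 4 of 13 alternative settings and Ninj1 in 5 of 13.

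Among 20 tested genes of sensing and priming, 7 were higher and 2 lower. Tlr2, a receptor for bacterial lipopeptides that primes the inflammasome, was 2.70-fold higher (346, 225, 509 and 456 in Pemt-/- at weeks 1 to 4 and 110, 155, 144 and 102 in Pemt+/+, adjusted p = 0.00584). Naip2 and Naip5, receptors for a bacterial secretion rod protein and for flagellin that signal through NLRC4, were 2.06-fold and 2.04-fold higher (adjusted p = 0.00339 and 0.0110). The gene family of Naip2 and Naip5 is one of close copies, so its probe sets may share signal. Nlrp12, a sensor described as a restraint on inflammatory signalling, was 1.97-fold lower (adjusted p = 0.00597). These 4 calls held with every week left out, and that of Nlrp12 was lost with the unpaired test the study's methods name (adjusted p = 0.125). The other 5 calls, named after their values were seen, were Cd14, the lipopolysaccharide co-receptor (log2 difference 1.96, adjusted p = 0.0183), Irak3, an inhibitor of Toll-like receptor signalling (1.10, 0.0250), P2rx7, the ATP-gated channel that triggers NLRP3 (0.86, 0.0243), Nek7, a partner of NLRP3 (0.33, 0.0485), and Nlrp6, an epithelial sensor (-0.61, 0.0130). Each of these 5 was lost without week 3 and without week 4.

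Of 12 tested effectors of pyroptosis and guanylate-binding proteins, 2 were higher and 1 lower. Gbp2 and Gbp3, interferon-induced GTPases that act upstream of caspase-11 on intracellular bacteria, were 2.29-fold and 2.19-fold higher (adjusted p = 0.00228 and 0.00128), and both held with every week left out. With the methods' unpaired test Gbp3 was lost (adjusted p = 0.0781). Ninj1, which drives the final rupture of the plasma membrane in lytic death, was 1.28-fold lower (adjusted p = 0.0404), in 1 of its 4 probe sets only, and the call was lost without week 1, 3 or 4. In the interleukin-1 family 1 of 10 tested genes was higher and 2 were lower. Il1rap, the shared receptor chain of interleukin-1 and interleukin-33, was 1.96-fold lower (6709 ± 1656 in Pemt-/- and 12875 ± 694 in Pemt+/+, SD, n = 4 each, adjusted p = 0.00187), in 1 of its 4 tested probe sets. Il33, an alarmin released from dying cells, was 1.83-fold higher (adjusted p = 0.0116, lost without week 3 and without week 4). Il1a was 1.81-fold lower (adjusted p = 0.0233, lost when any week was left out), at 71.5 ± 17.3 in Pemt-/- and 141 ± 16.4 in Pemt+/+ (SD, n = 4 each).

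In the list of the TNF receptor and necroptosis, 3 of 27 tested genes were higher, 0 lower and 24 did not pass, with a median of 0.03. The 3 were Birc2, a ubiquitin ligase of the TNF receptor complex (1.74-fold, adjusted p = 0.0058), Rbck1, a subunit of the linear ubiquitin ligase (1.55-fold, adjusted p = 0.0230), and Tnfaip3, which encodes the ubiquitin-editing enzyme A20 (3.24-fold, adjusted p = 0.0265). Only the call of Birc2 held with every week left out. Rbck1 was lost without week 2, 3 or 4 and Tnfaip3 without week 1, 3 or 4. Tnfaip3 measured 432, 248, 652 and 736 in Pemt-/- at weeks 1 to 4 and 150, 263, 70.7 and 118 in Pemt+/+. It was thus lower in Pemt-/- at week 2, and the genotypes overlapped. Its call was also lost without the intensity trend (adjusted p = 0.0857, limma) and with the methods' unpaired test (adjusted p = 0.0822). Outside the naming rule, the log2 difference was 0.05 for Casp8, the protease that restrains necroptosis, -0.13 for its adaptor Fadd, 0.22 for its partner Cflar and 0.13 for Zbp1, a nucleic acid sensor that can engage RIPK3 (adjusted p from 0.284 to 0.788). Tnf itself lay below the filter, at 15.5 to 64.1 in Pemt-/- and 4.21 to 64.1 in Pemt+/+, and was not tested.

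**Figure D3:**
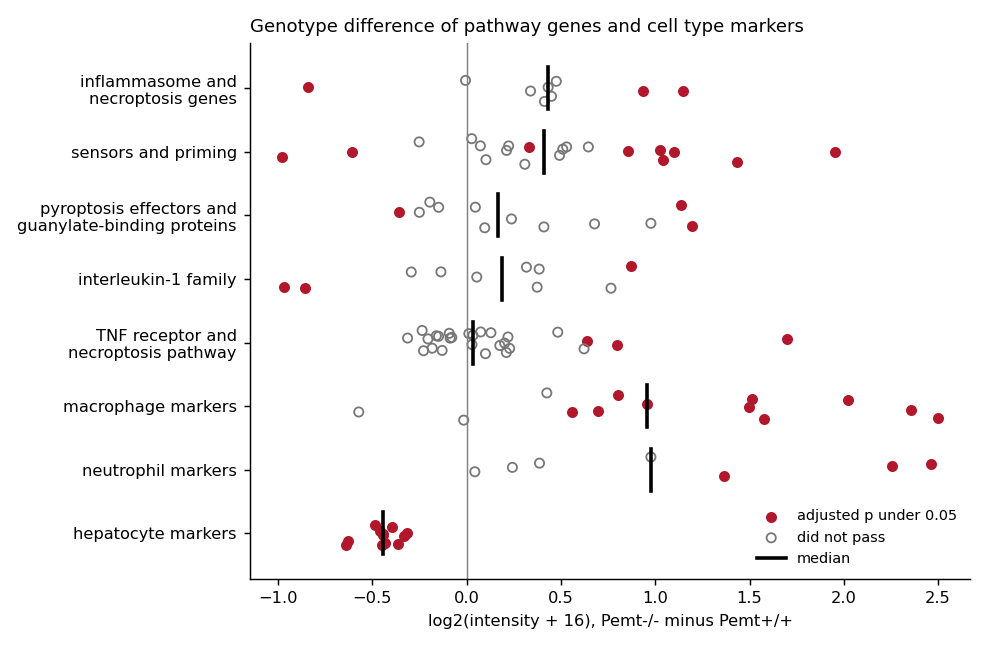
Difference in log2(intensity + 16), Pemt-/- minus Pemt+/+, for the tested genes of 5 pathway groups and 3 groups of cell type markers, 1 point per gene, filled red where the adjusted p was under 0.05 and open where not, with black bars at the medians. The median lies at 0.43 for the 9 genes in the top row, at 0.96 for macrophage markers and at -0.44 for hepatocyte markers.

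Markers of other liver cells moved with genotype on the same arrays. Of 14 macrophage markers 13 were tested, and 10 of these were higher and 0 lower in Pemt-/-, with a median of 0.96. Their summed intensity was 34234 to 43263 in Pemt-/- and 15058 to 21423 in Pemt+/+. Of the markers typical of Kupffer cells, the resident macrophages, Marco and Cd5l were higher, at log2 differences of 1.51 and 0.56 (adjusted p = 0.00931 and 0.0271), and Vsig4, Clec4f and Timd4 did not pass, at 0.42, -0.02 and -0.57 (adjusted p = 0.0844, 0.946 and 0.292). Of 11 neutrophil markers 7 were tested and 3 were higher, with summed intensities over the 9 with a probe set of 1248 to 1954 in Pemt-/- and 355 to 822 in Pemt+/+. All 12 hepatocyte markers were lower, with a median of -0.44. All 8 stellate cell markers were higher, with summed intensities of 35252 to 47662 in Pemt-/- and 13420 to 17637 in Pemt+/+. Of 6 sinusoidal endothelial markers 3 were lower and 0 higher, and 1 of 4 tested dendritic cell markers and 1 of 5 cholangiocyte markers were higher. None of 5 tested lymphocyte markers passed, and the 1 erythroid marker tested was lower. No marker was at 0 on an array. In bulk liver, fewer cells of a type and less RNA per cell cannot be told apart, and the part of these cells in the values of Pycard, Mlkl and Il18 was not tested. All Pemt-/- arrays lay above all Pemt+/+ arrays for the macrophage, neutrophil, dendritic cell, lymphocyte and stellate cell sums. The same held for Pycard, Mlkl and Casp1. For the hepatocyte and erythroid sums they lay below, as for Il18. Of all probe sets tested, 12.8% separated with Pemt-/- above and 8.96% with Pemt-/- below. The lymphocyte sum was 720 to 770 in Pemt-/- and 492 to 678 in Pemt+/+, with 5 of its 10 markers tested. The erythroid sum held 2 markers, of which 1 was tested.

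The genes most like each of the 9 over the 8 arrays were listed by Pearson's r of log2 values among 12940 other tested genes, as a description with no p, since the arrays share the genotype difference. Closest to Pycard was Tlr2 (r = 0.985), followed by Ralgps2 and Emsy (r = 0.981 each). Closest to Mlkl were Fam102a (r = 0.989), Galnt10 and Smpdl3b (r = 0.979 each), all 3 higher in Pemt-/-. Closest to Il18 were Spry4 (r = 0.997), Pls3 (r = 0.991) and Pura (r = 0.988), all 3 lower. For Casp1 it was the guanylate-binding protein gene Gbp8 (r = 0.984), with Tbc1d8 and Commd1 next (r = 0.968 and 0.949). Casp4 was followed most closely by Slc39a4, Mapre2 and Vmn2r1 (r = 0.964, 0.962 and 0.954), and Ripk3 by Anxa6, Rgp1 and Cabin1 (r = 0.974, 0.970 and 0.962). For Nlrp3 they were Arid4b, Mbp and Ino80d (r = 0.967, 0.949 and 0.943), for Il1b Ddx42, Gria3 and Tmem39a (r = 0.953, 0.944 and 0.932), and for Gsdmd Pop1, Zcrb1 and Tmem192 (r = 0.987, 0.936 and 0.933). Both the number of arrays and the shared genotype difference limit what an r of this size shows.

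**Figure D4:**
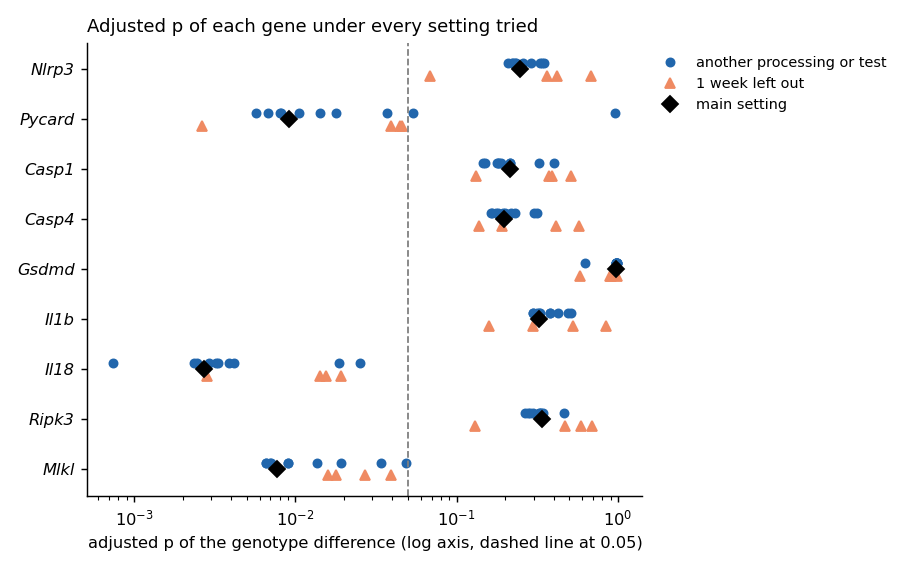
Adjusted p of the genotype difference on a log axis for the 9 tested probe sets, with the main setting as a black diamond, other processing or tests as blue circles and fits with 1 week left out as orange triangles. The points of Mlkl and Il18 all lie left of the dashed line at 0.05, those of Pycard lie right of it with the methods' unpaired test (0.0534) and with the mean of its 3 probe sets (0.958), and those of the other 6 genes all lie to the right.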

How the data were processed

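Liver RNA of 8 samples was measured on Affymetrix expression arrays. The deposited values are probe set intensity on a linear scale, which the authors had brought to a common level: after trimming 2% at both ends, the mean of each array was 500.0. Expression Console is the software named by the submitters, with neither a version nor a summary method stated, and detection calls were not used. Array medians ran from 73.8 to 81.3, and the small number of arrays is what limits precision.

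Of 45101 probe sets, 64 controls were left out. The annotation paired 34945 of the rest with 1 gene, 932 with several and left 9160 unnamed here, and symbols of 34741 were updated through Entrez identifiers against RefSeq (GRCm38.p6). Values were taken as log2(intensity + 16), and probe sets with a mean above the 40th percentile were tested (27022). Linear models (limma 3.58.1, R 4.3.3, trended eBayes) held genotype and a factor for week, and a further model gave each genotype its own slope over weeks. Tests were two-sided, adjusted by the Benjamini-Hochberg method over all probe sets tested, at a threshold of 0.05. The fits were tested on simulated data. The genes and lists were chosen with earlier results of these data known. All 10 genes were named, with up to 4 called genes of the smallest p per list and the 3 genes of the highest r per gene. Alternatives were other filters, scalings, pseudocounts and tests, and leaving out each week.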

Additional observations from a re-analysis of the deposited data

Results flagged for a closer look

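The Nlrp3 intensity of the Pemt+/+ array of week 4, 80.6, lay far from the other 3 Pemt+/+ arrays, which were at 145, 145 and 153, a gap past Dixon's critical value for 4 values. It was the only such value among 22 sets of 4 arrays (11 probe sets in each genotype), where chance gives about 1 in 20. The 4 arrays are of different weeks. The Nlrp3 ratio of 2.78 at week 4 is taken against this value, and the log2 difference was 0.20 without week 4.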

How the results depend on the processing

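Il18 stayed lower and Mlkl higher past the threshold in all 14 alternatives tried for each, with log2 differences from -0.92 to -0.75 (adjusted p from 0.000737 to 0.0253) and from 0.77 to 1.05 (adjusted p from 0.00654 to 0.0488). Pycard passed in 12 of 14. It missed with the methods' t-test, at 1.15 (adjusted p = 0.0534), which left 1 gene called higher in place of 2, and as the mean of its 3 probe sets, at 0.02 with no filter (adjusted p = 0.958), an alternative chosen after seeing the data. The 6 other genes passed in none. The direction of Gsdmd turned to 0.0050 after median centring and with weeks left out ranged from -0.11 to 0.045. No scaling moved the median of all probe sets by 0.1. Slope differences without one week ranged for Mlkl from -0.21 to 0.36, Casp1 from -0.076 to 0.29, Il1b from -0.17 to 0.41 and Nlrp3 from -0.12 to 0.81, and that of Mlkl was 0.0080 with a pseudocount of 64. The number of probe sets called was 4372, and between 1800 and 4812 without one week, 2348 without the intensity trend, and with the methods' t-test 7864 at the unadjusted threshold and 2511 after Benjamini-Hochberg. Without the week as a replicate block it was 4619. The correlation of deviations between the 2 arrays of a week was 0.10, -0.02, -0.03 and 0.11 at weeks 1 to 4. The highest correlation with another week was -0.0092, 0.087, 0.056 and 0.022, so at weeks 2 and 3 another week matched better. After quantile normalization 0 of the 9 genes had a ratio of 2 or more at week 2 in place of 1, and 1 had a ratio of 0.5 or less at week 4 in place of 0. With ratios of intensity + 16, 2 of the 9 reached 2 at week 4 in place of 3, where Ripk3 had a log2 difference of 0.97. The cause of these changes was not tested. Whether the arrays can resolve a difference of 1.15 at the level of the 2 dim Pycard probe sets was not tested.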
